A study of Mus musculus with 17 samples.

Results

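Promoter to promoter loops are contacts in which both ends lie at the start of a protein-coding gene. To describe those that bulk cells and sorted cells of the same embryoid bodies (EBs) had in common, overlapping loop anchors of 17 H3K27ac HiChIP libraries were joined and the read pairs of each loop were summed over the libraries of a group. A loop was taken as a member when it lay on an autosome, spanned under 1 Mb, had at least 5 read pairs in the bulk pool and at least 5 in the pool of sorted cells, and had its anchors within 5 kb of start sites (TSSs) of different protein-coding genes with no gene in common. The stretch chr11:3000001-3200000 was left out. Of 1211657 loops, 115083 were autosomal promoter to promoter loops under 1 Mb, and 2923 of these were members. They joined 3152 anchors that lay at 3810 genes. Genes of 1 anchor are joined by a slash below, and clone-named genes that share an anchor with a better known gene (1600002K03Rik with Cirbp, 5730596B20Rik with Hoxa3, BC005764 with Prtn3, 4933406P04Rik with Bclaf1) are left out of most names. A value of such an anchor cannot be assigned to 1 of its genes.

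Both groups came from mouse embryonic stem cells that were made into EBs by the hanging drop method and treated with retinoic acid (RA) at 0.5 µM for 4 days. The bulk group holds 12 libraries of unsorted EB cells. The cluster2 group holds 5 libraries, which the study's methods describe as cells sorted by FACS for both EpCAM and CD38, and they are called double positive below. Unsorted EBs also hold double positive cells, so the groups share a part of their cells, and a contact made in fewer cells cannot be told apart from a contact made less often per cell. The labels number the libraries without naming separate cultures, so p-values measure the spread between these libraries, which may be technical.

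HiChIP ligates DNA ends that lie close together in the nucleus and then enriches fragments that carry a chosen protein mark. With an antibody to H3K27ac, an acetylated histone tail found at active promoters and enhancers, it reads contacts among active elements. Active promoters that lie near each other often meet at shared sites of transcription, and housekeeping genes and tandem gene families are known for such contacts. The CpG islands at many of these starts keep promoters open in most cell types. A loop here is a count of read pairs joining its anchors, and neither shows that a gene of the pair is transcribed nor that it controls the other.

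The starts of 4 member pairs that carry the results below are printed to show how unlike in CpG content the 2 ends of a pair can be. Each run holds the 250 bases before the 5′-most annotated start inside the anchor, from the mm9 genome, 5′ to 3′ on the strand of the gene, with CpG dinucleotides in capitals. Hoxa4 (chr6:52141753-52142002, minus strand) and Hoxa5 (chr6:52154587-52154836, minus strand) form the pair with the most bulk read pairs. Midn (chr10:79610767-79611016, plus strand) with Cirbp (chr10:79628480-79628729, plus strand), and Rbm39 (chr2:156005975-156006224, minus strand) with Phf20 (chr2:156021952-156022201, plus strand), come next when pairs are ranked by the smaller of their shares of each pool. Ccdc33 (chr9:57966631-57966880, minus strand) and Stra6 (chr9:57979454-57979703, plus strand) form a pair that leaned towards double positive cells.
Hoxa4: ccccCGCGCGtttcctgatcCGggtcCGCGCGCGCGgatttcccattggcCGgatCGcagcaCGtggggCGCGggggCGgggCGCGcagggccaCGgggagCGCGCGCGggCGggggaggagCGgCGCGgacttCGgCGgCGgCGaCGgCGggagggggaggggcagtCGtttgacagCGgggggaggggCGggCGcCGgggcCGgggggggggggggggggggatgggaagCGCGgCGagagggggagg
Hoxa5: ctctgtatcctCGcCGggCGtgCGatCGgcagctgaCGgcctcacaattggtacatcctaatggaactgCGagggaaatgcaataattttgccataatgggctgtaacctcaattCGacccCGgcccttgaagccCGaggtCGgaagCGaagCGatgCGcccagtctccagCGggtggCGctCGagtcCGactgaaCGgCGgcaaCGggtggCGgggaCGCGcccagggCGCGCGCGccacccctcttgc
Midn: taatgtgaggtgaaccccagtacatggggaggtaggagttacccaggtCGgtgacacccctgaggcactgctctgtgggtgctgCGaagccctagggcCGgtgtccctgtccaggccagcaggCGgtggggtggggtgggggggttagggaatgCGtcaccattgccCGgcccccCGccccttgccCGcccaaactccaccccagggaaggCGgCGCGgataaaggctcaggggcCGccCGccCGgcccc
Cirbp: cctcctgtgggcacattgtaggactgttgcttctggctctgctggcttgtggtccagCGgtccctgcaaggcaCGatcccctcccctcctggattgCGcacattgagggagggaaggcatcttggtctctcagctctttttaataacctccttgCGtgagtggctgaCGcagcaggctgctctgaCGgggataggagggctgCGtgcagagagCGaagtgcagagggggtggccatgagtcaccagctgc
Rbm39: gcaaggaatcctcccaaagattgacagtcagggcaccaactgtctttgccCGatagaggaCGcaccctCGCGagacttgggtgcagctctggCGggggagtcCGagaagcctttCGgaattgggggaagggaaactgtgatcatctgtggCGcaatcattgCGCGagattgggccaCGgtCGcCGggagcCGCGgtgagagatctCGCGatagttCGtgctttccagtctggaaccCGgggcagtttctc
Phf20: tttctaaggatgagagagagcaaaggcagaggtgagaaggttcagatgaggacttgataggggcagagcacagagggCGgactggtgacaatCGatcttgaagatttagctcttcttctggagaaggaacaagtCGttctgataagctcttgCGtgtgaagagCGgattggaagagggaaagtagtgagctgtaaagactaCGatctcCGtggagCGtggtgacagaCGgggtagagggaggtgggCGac
Ccdc33: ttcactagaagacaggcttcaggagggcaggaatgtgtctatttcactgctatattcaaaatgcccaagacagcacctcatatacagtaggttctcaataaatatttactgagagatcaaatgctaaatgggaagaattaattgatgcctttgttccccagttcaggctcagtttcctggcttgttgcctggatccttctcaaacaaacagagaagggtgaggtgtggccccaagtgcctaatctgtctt
Stra6: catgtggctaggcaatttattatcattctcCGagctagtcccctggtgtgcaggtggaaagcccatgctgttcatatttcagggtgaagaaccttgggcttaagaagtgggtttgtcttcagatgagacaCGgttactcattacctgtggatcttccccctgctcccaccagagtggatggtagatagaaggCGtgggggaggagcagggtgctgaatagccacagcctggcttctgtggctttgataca

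The Hoxa4 run held 41 CpG dinucleotides and was 82.0% GC, against 28 CpG and 63.6% for Hoxa5. The Ccdc33 run held 0 CpG and was 43.2% GC, against 3 and 51.2% for Stra6. Midn and Cirbp lay between these values, with 14 and 8 CpG, as did Rbm39 and Phf20, with 19 and 10. Over all member genes the 250 bases before the start had a median GC content of 58.4% and a median ratio of observed to expected CpG of 0.708. For these medians the annotated start of the gene was used, which need not lie inside the anchor, unlike the starts of the printed runs.

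The libraries listed between 50508 and 241068 read pairs in loops. Most members were thin. The bulk pool gave them a median of 7 read pairs, with quartiles of 6 and 10, and the double positive pool a median of 13, with quartiles of 8 and 22. Between them the members held 27513 of the 1616066 bulk read pairs and 50269 of the 409248 double positive read pairs. In a single library that was 1.05% to 2.37% of bulk and 12.1% to 12.5% of double positive read pairs. These counts chose the members and are given as a description. The limit of 5 cut through a dense part of the distribution: 817 members had exactly 5 read pairs in at least 1 pool, and 1339 loops of the same kind fell just outside with 4 in the smaller pool. A member had a read pair in a median of 5 bulk and 5 double positive libraries, 1580 members were seen in all 5 double positive libraries, and 16 were seen in all 17 libraries.

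Under the same limits 5305 autosomal loops had 5 or more read pairs in both pools. Members made up 55.1% of them, whereas promoter to promoter loops made up 11% of all autosomal loops under 1 Mb. The others were 1425 loops from a promoter to a distal anchor, 362 loops between distal anchors, and 595 loops whose anchors had a gene in common. A loop listed in both groups joins anchors that loops of both groups use. Of all autosomal loops under 1 Mb between such anchors, 61.1% were promoter to promoter loops. The share of members was not above that.

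Member pairs were mostly neighbours. Their spans ran from 6058.5 to 826466 bp with a median of 37591.5 bp, against a median of 229914 bp for all 115083 promoter to promoter loops. Spans under 20 kb made up 27.2% of members and spans over 100 kb made up 17.8%, against 4.09% and 73.3% of all such loops. No other gene start lay between the anchors of 1497 members (51.2%), and 84 members had 10 or more genes in between. Of 1305 members with a single gene at each anchor, 31.7% were divergent, 17.1% convergent and 51.2% tandem, against 25.3%, 23.9% and 50.8% of all promoter to promoter loops with single genes. Short contacts collect more read pairs in any such assay, so the rule on read pairs itself favours short spans. Short spans were also not particular to members. The 956 promoter to promoter loops with 5 or more bulk and 0 double positive read pairs had a median of 35584.5 bp. Of these, 59.6% had no gene start in between, and 30.2% of those with single genes were divergent. The 2936 with 5 or more double positive and 0 bulk read pairs had 113399 bp, 20.9% and 28.5%.

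**Figure D1:**
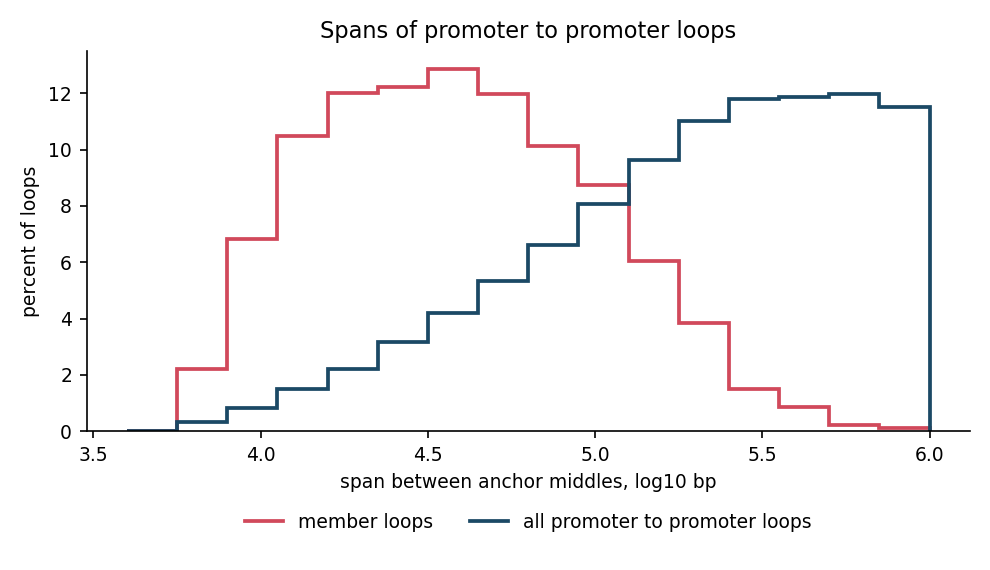
Spans between anchor middles (x axis, log10 bp) as the percent of loops per bin (y axis) for the 2923 member loops and for all 115083 promoter to promoter loops under 1 Mb. The members peak at shorter spans, with medians of 37591.5 and 229914 bp.

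For the values of single pairs, CPM are counts-per-million after TMM scaling, and log2 fold changes of double positive over bulk come from edgeR's quasi-likelihood fit to the 5369 loops that had 20 or more read pairs in all and were seen in 5 or more libraries. In that fit 38.1% of all tested loops passed an adjusted p under 0.05 as higher in double positive libraries and 22.4% as lower. Of 1656 members that could be tested, 375 were among the higher and 62 among the lower loops. The rule used these same read pairs and demanded them in both groups, so nothing is read from these counts. The median tested loop had a log2 fold change of 0.78, and 2.99 with library size alone as the scale, so values of named pairs and lists are given relative to the median loop. Relative to it, no named pair turned its sign with library size alone.

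Pairs were ranked as strong by the smaller of their shares of the read pairs of each pool, which was the bulk share for the 8 pairs that led. Hoxa4 to Hoxa5/Hoxa6 came first, although other pairs had more double positive read pairs. These are clustered homeobox genes that give cells their position along the body axis and respond to RA. The joined Hoxa4 anchor is 52138891 to 52148971 on chromosome 6 and lies 10115 bp from the anchor at Hoxa5 and Hoxa6, middle to middle. Bulk libraries held 5 to 43 of its read pairs (median 11.5), and there were 30, 18, 10, 4 and 22 in the double positive libraries 1 to 5. This is 185 ± 86.9 CPM (SD, n = 12) and 61.2 ± 23 CPM (SD, n = 5), and every double positive library lay below every bulk library. The log2 fold change was -1.60 (standard error 0.31), or -2.38 relative to the median loop, while with library size alone it was 0.74 before the median was taken off.

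Atp5d/Midn to Cirbp followed, 16884.5 bp apart on chromosome 10. Atp5d encodes a subunit of the mitochondrial ATP synthase, Midn encodes midnolin, which feeds proteins to the proteasome, and Cirbp encodes a cold-inducible RNA-binding protein. It had 0 to 27 bulk read pairs, with a median of 6, and 31, 22, 18, 9 and 13 double positive read pairs. The levels of 94.3 ± 58.2 CPM (SD, n = 12) in bulk and 74.2 ± 26.9 CPM (SD, n = 5) in double positive libraries overlapped.

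Rbm39 to Phf20 joined the starts of a splicing factor and of a subunit of a histone acetyltransferase complex, which lie 15612 bp apart and point away from each other. Bulk libraries had 3 to 15 read pairs, with a median of 5.5, and double positive libraries 37, 25, 19, 19 and 42. At 85.1 ± 31.3 CPM (SD, n = 12) and 111 ± 15.4 CPM (SD, n = 5) the groups again overlapped. Both lie on chromosome 2 beyond 150 Mb, and that stretch and chromosome 1 from 130 Mb took 12.6% to 21.0% of a bulk library but 4.20% to 4.26% of a double positive library. In these stretches lay 244 members (8.35%).

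Naca to Baz2a/Ptges3 was also among the 8 strongest pairs. Naca binds new chains at the ribosome, Baz2a belongs to a complex that silences ribosomal DNA, and Ptges3 is a partner of the chaperone HSP90. Its bulk read pairs were 1 to 13, with a median of 3, and its double positive read pairs were 38, 34, 12, 23 and 36. The levels were 54.5 ± 38.9 CPM (SD, n = 12) and 111 ± 25.7 CPM (SD, n = 5), with overlap, and the log2 fold change was 0.95 (standard error 0.34), 0.16 above the median loop.

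The other 4 of the strongest pairs all overlapped between groups and lay at -1.74 to -1.09 relative to the median loop on the log2 scale. Gpsm3/Pbx2 to Ager/Agpat1/Rnf5, in the major histocompatibility region, includes Pbx2, a homeodomain partner of Hox proteins, and had 66 bulk and 45 double positive read pairs. Mbd3, a subunit of the NuRD deacetylase complex, contacted Uqcr11, a subunit of respiratory complex III, with 61 read pairs in each pool. Cd151/Efcab4a to Polr2l/Tspan4, with 58 and 60, has tetraspanin genes at both ends and a subunit shared by the nuclear RNA polymerases. Ptbp1, a repressor of splicing, contacted the anchor of BC005764 and of Prtn3, a serine protease of neutrophil granules, with 53 and 34.

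**Figure D2:**
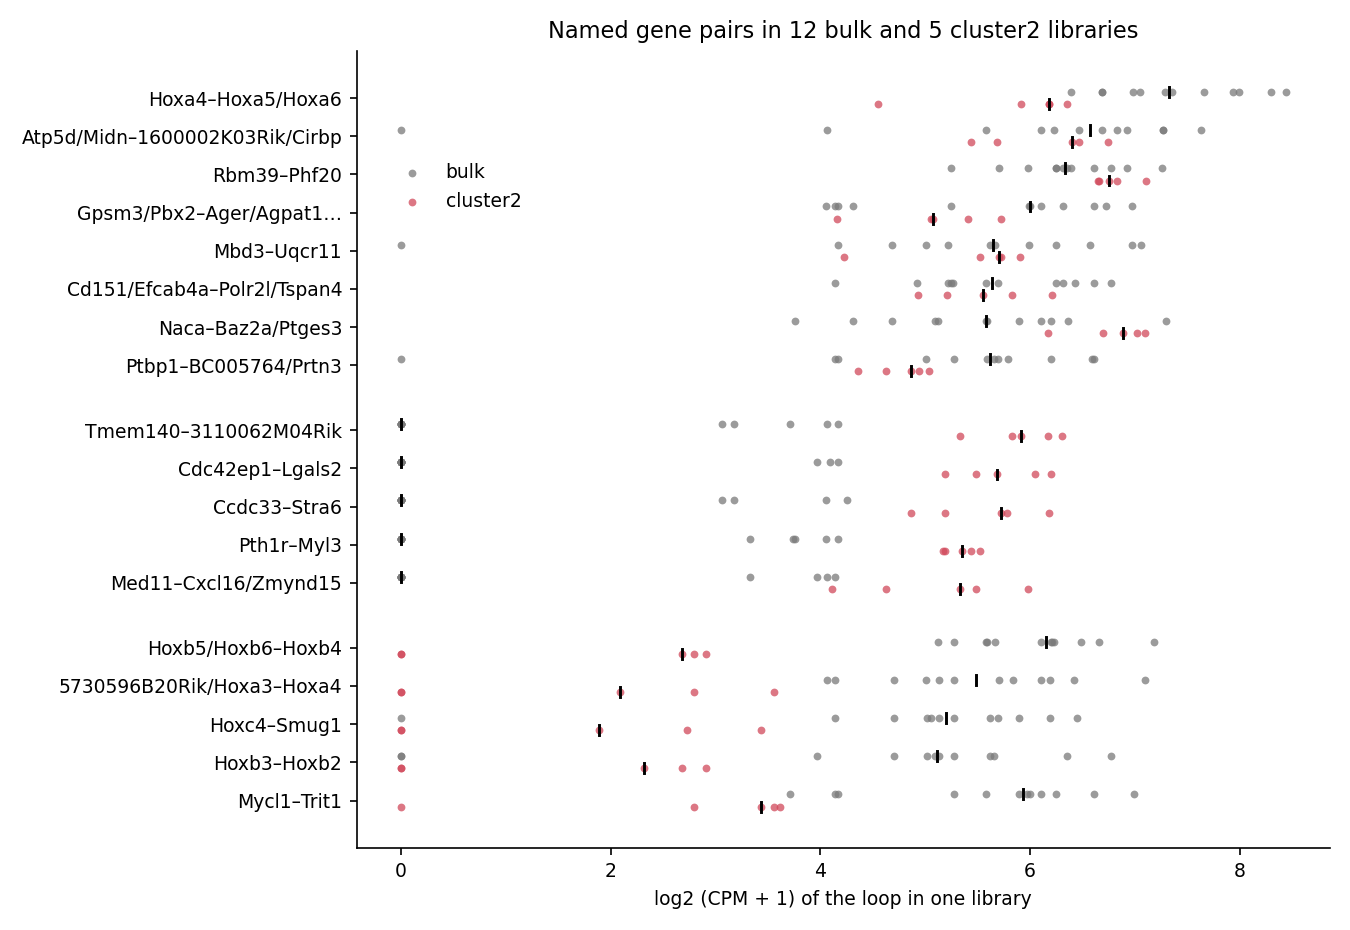
Level of 18 gene pairs in each library, as log2(CPM + 1) on the x axis, with a point per library (12 bulk, 5 double positive, labelled cluster2) and a black tick at the group median. From top to bottom are the 8 strongest pairs, 5 with the largest and 5 with the smallest log2 fold change. In the middle block the bulk median is 0 for every pair, and among the strongest only Hoxa4 to Hoxa5/Hoxa6 has groups that do not overlap.

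The 5 pairs with the largest log2 fold change all sat at the lower limit of 5 read pairs in the bulk pool, so their folds carry the counting error of 5 read pairs. They were chosen by fold change in these same libraries, so a lack of overlap between groups goes with that choice and is description only. Tmem140 to 3110062M04Rik, on chromosome 6, had at most 1 read pair in a bulk library and 22, 14, 12, 7 and 24 in the double positive libraries. That is 5.01 ± 6.73 CPM (SD, n = 12) and 60.8 ± 15.0 CPM (SD, n = 5), without overlap, and 2.58 above the median loop. Cdc42ep1, an effector of the GTPase Cdc42, contacted Lgals2, a galectin, with 27, 11, 6, 9 and 20 double positive read pairs and no more than 2 in a bulk library.

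Ccdc33 to Stra6 had 20, 13, 6, 5 and 22 double positive read pairs and at most 2 in a bulk library. Stra6 encodes the cell surface receptor for retinol-binding protein and is named for its induction by RA. The levels were 4.09 ± 6.66 CPM (SD, n = 12) and 48.2 ± 17.1 CPM (SD, n = 5), and all 5 double positive libraries lay above every bulk library. Pth1r, the receptor for parathyroid hormone and its related peptide, contacted Myl3, a myosin light chain, with 13, 10, 6, 8 and 13 double positive read pairs, again without overlap. Med11 to Cxcl16/Zmynd15, which joins a Mediator subunit with a chemokine gene, had 23, 11, 4, 7 and 5, and 4 of these 5 libraries lay above all bulk libraries.

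Of the 5 pairs with the smallest log2 fold change, 4 had a Hox gene at an anchor. These 5 were chosen on the same libraries too, so a lack of overlap is again description only. Hoxb5/Hoxb6 to Hoxb4 had 2 to 16 read pairs in bulk libraries, with a median of 5, and 2, 0, 1, 0 and 2 in double positive libraries. Its levels of 69.7 ± 31.1 CPM (SD, n = 12) and 3.57 ± 3.28 CPM (SD, n = 5) did not overlap, and its log2 fold change was -4.74 relative to the median loop (standard error 0.75). Hoxa3 to Hoxa4 had 1 to 11 bulk read pairs against 4, 0, 1, 0 and 1. Hoxc4 contacted Smug1, an enzyme that removes uracil from DNA, across 129753 bp with 43 bulk and 5 double positive read pairs, and Hoxb3 to Hoxb2 had 42 and 5, both with overlap at 0. The fifth pair was Mycl1, a MYC family gene, with Trit1, which modifies tRNA. It had 1 to 14 bulk read pairs, with a median of 4, and 4, 0, 1, 2 and 3 double positive read pairs, or 56.6 ± 33.9 and 7.55 ± 4.71 CPM, without overlap.

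The Hox genes as a list had 30 member loops, of which 22 had a Hox gene at both ends. In all, 21 of the 35 Hox genes at anchors used by both groups were in a member pair. None of the 23 loops that could be tested lay above the median of all tested loops, and their median was -2.39 relative to it, against -0.04 for the 1656 members tested. Among them 19 joined anchors of the HoxA cluster, 3 of the HoxB cluster, and none had both ends in HoxC or HoxD. Values from Hoxa3 onwards in HoxA were uneven, at -4.10 to -1.30 relative to the median loop over the 6 loops tested. Hoxa3 has separate anchors close to each other, and that at 52121911 to 52123967 had 34 bulk and 30 double positive read pairs with Hoxa4, at -1.30, whereas that at 52124474 to 52128757 had 54 and 6, at -4.10. Their loops with Hoxa5/Hoxa6 had 24 and 11, at -2.19, and 16 and 6, at -2.39. Hoxa4 to Hoxa7/Hoxa9 had 28 and 6, at -3.15. Hoxa5/Hoxa6 to Hoxa7/Hoxa9 had 10 and 9 and could not be tested.

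Hox loops also left their clusters. Hoxa4 reached the bidirectional start of Cbx3 and Hnrnpa2b1, which encode a heterochromatin protein and an RNA-binding protein, at 724182 bp with 12 bulk and 9 double positive read pairs. Skap2, an adaptor protein of immune cells, contacted Hoxa5/Hoxa6 with 20 and 5. Hoxd3 contacted Mtx2, a mitochondrial import protein, with 9 and 6, and Hoxc4 contacted Atp5g2, a subunit of ATP synthase, with 7 and 6.

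**Figure D3:**
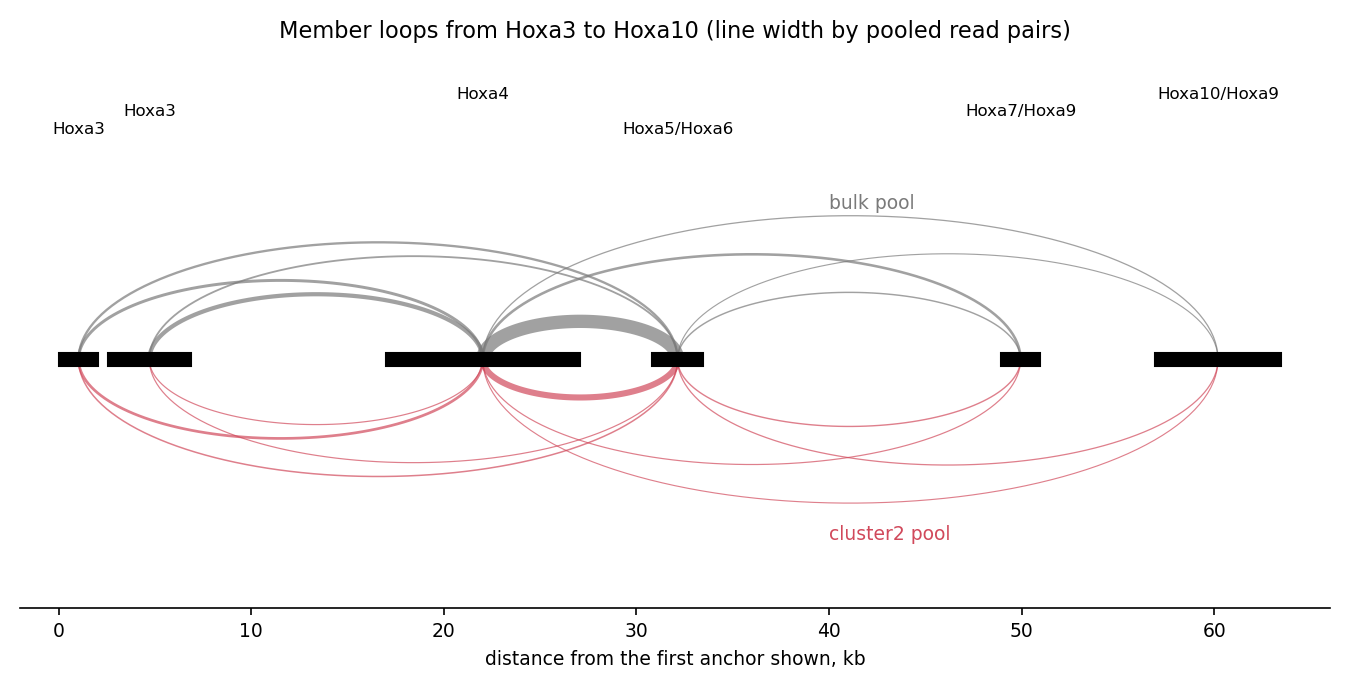
The 9 member loops among anchors from Hoxa3 to Hoxa10, drawn as arcs between anchor middles (x axis, kb from the first anchor shown), with bulk above and double positive (cluster2) below and a line width that grows with pooled read pairs. The arc from Hoxa4 to Hoxa5/Hoxa6 is the widest in both pools (199 and 84), and of the arcs from Hoxa3 to Hoxa4 one is about as wide below as above (34 against 30) and the other is narrower below (54 against 6).

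**Figure D4:**
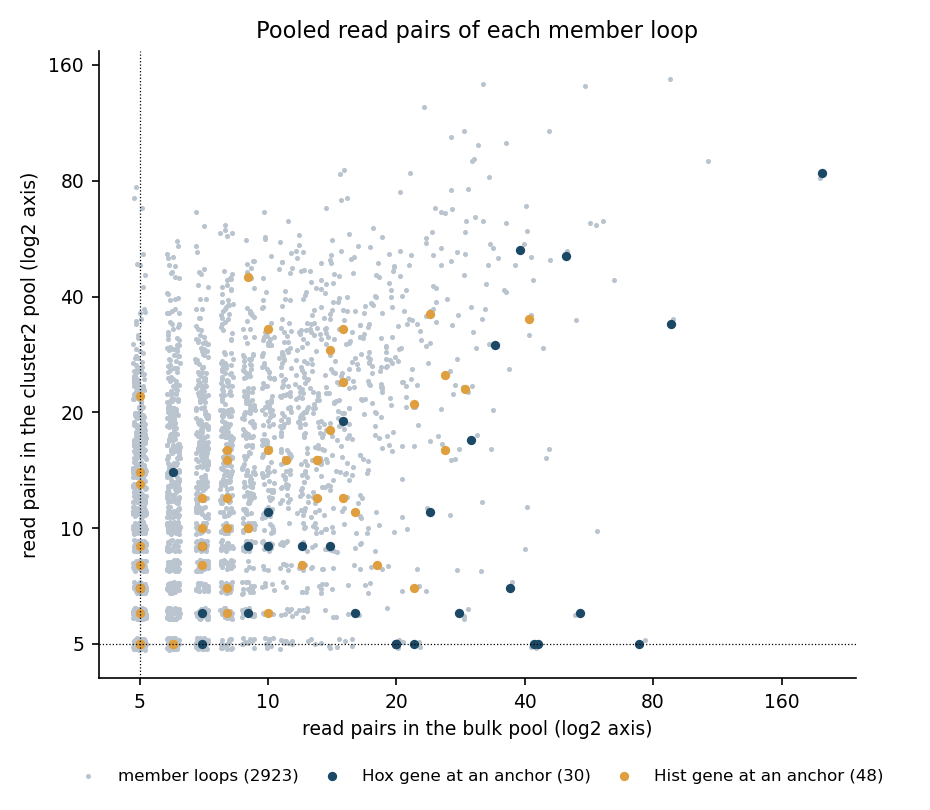
Pooled read pairs of each of the 2923 members in bulk (x) and double positive libraries (y), both on log2 axes, with small random offsets on the grey points. Dotted lines mark the limit of 5, dark points have a Hox gene at an anchor and orange points a gene whose symbol starts with Hist. Most Hox points lie in the lower right, with 74 bulk and 5 double positive read pairs at the far end, and the orange points are scattered.

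The longest members crossed many genes. Cnot3, a subunit of the CCR4-NOT deadenylase, contacted Eps8l1, a regulator of actin, over 826466 bp and 19 intervening genes, with 7 read pairs in each pool. In double positive libraries these were 5, 0, 0, 0 and 2, so 2 libraries carry the contact. Plxnb1, a semaphorin receptor, reached Nme6, of the nucleoside diphosphate kinase family, over 735938 bp with 6 and 5 read pairs. Bclaf1, a factor in transcription and RNA processing, reached Ahi1, a gene of the primary cilium, over 640892 bp with 7 and 9. All 4 of the longest pairs, Hoxa4 with Cbx3 included, rest on at most 12 read pairs in a pool.

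Both ends carried genes of the same symbol family in 105 members, from 30 families. The replication-dependent histones led with 30 loops, then the Zfp zinc finger genes with 23 and Hoxa with 19. Hist1h3e contacted an anchor with 6 other histone genes, 10672 bp away on chromosome 13, with 1 to 7 read pairs in bulk libraries (median 3) and 22, 3, 2, 3 and 5 in double positive libraries. Double positive library 1 thus held most of its read pairs. Histone genes are near-identical in sequence, so the placing of their reads is uncertain. Slc7a6, an amino acid transporter, contacted Slc7a6os and Prmt7 with 20 and 41 read pairs, but Slc7a6os is named for its place on the opposite strand and is no relative of Slc7a6.

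Members gathered in gene-dense stretches. They formed 847 connected groups of anchors, of which 440 were single pairs and 48 had 10 or more anchors. The largest, at chr10:79315800-80464537, held 142 loops among 56 anchors and 62 genes, with Ptbp1, Midn, Cirbp, Stk11, Gpx4, Mbd3 and Klf16 among them. The window of 2 Mb from 78000001 on chromosome 10 alone had 115 members, whereas the median of the 430 windows with a member was 3. Chromosome 11 had the most members (425), and per 100 protein-coding genes chromosome 10 had 28.2, chromosome 19 had 26.8 and chromosome 14 had 4.09.

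Of the 3152 anchors, 1877 had a single member loop and 19 had 10 or more. Atp5d/Midn and Bscl2/Gng3 had 18 each. Bscl2 encodes seipin of lipid droplets and Gng3 a G protein subunit. The partners of Atp5d/Midn lay 10758 to 295531 bp away and shared 308 bulk and 390 double positive read pairs, and those of Bscl2/Gng3 shared 200 and 366. Ptbp1 had 16 member loops, Cirbp 14, and Cfl1/Mus81, which encode the actin-severing protein cofilin and a DNA endonuclease, 14.

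By function, the share of genes in a member pair is given for lists of gene groups. Counts are over list genes at anchors that loops of both groups use, of which 34.8% (3810 of 10943) were in a member pair for all protein-coding genes. The lists were matched by gene symbol and include a few genes of other function, such as Hspg2 (perlecan) among the chaperones and Foxred2 among the developmental factors. No test was made between lists. Histones stood highest with 58 of 70 genes (82.9%), followed by immediate early genes with 14 of 21 (66.7%), Hox genes with 21 of 35, cytosolic ribosomal proteins with 45 of 77 (58.4%) and RNA processing factors with 60 of 105 (57.1%). The 58 histone genes lay at 35 member anchors, whereas the 45 ribosomal protein genes lay at 56. A single loop can thus count several clustered genes, which raises the share of such lists. RNA polymerase and general transcription factors had 38 of 77, translation factors 25 of 55, mitochondrial ribosomal proteins 26 of 59, respiratory chain and ATP synthase genes 33 of 76, chaperones 31 of 73, cell cycle genes 36 of 89, proteasome genes 15 of 38 and ubiquitin genes 42 of 112. Solute carriers (57 of 170) and Zfp genes (85 of 256) were near the share of all genes. Basement membrane and collagen genes had 7 of 26, developmental transcription factors other than Hox 28 of 141 (19.9%), and keratins and claudins 3 of 23, namely Krt222, Cldn3 and Cldn15.

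Some lists contacted themselves and others did not. Histone genes lay at both ends of 30 of their 58 member loops, Hox genes of 22 of 30 and Zfp genes of 28 of 135. A cytosolic ribosomal protein gene lay at 108 members but at both ends of 1, and none of the 65 loops of mitochondrial ribosomal protein genes had them at both ends. Strong pairs of the lists were added after the values were seen, and a few are given here. Traf4, a signal adaptor, contacted the anchor of Nek8, Rpl23a and Tlcd1 with 34, 26, 9, 11 and 25 double positive read pairs and 0 to 9 in bulk libraries. Of the 64 tested loops of cytosolic ribosomal protein genes, 14 (21.9%) passed as higher and 0 as lower. These shares were 22.6% and 3.74% for all tested members, and 38.1% and 22.4% for all tested loops. The rule chose members on these read pairs, so nothing is read from the calls. The median of the 64 loops was -0.03 relative to the median loop.

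Immediate early genes, which cells switch on within minutes of a signal, were at 38 members. Junb/Prdx2 to Hook2 had 37, 34, 15, 22 and 35 double positive read pairs and 0 to 7 in bulk libraries, or 112 ± 18.6 CPM (SD, n = 5) and 31.7 ± 25.7 CPM (SD, n = 12). Jund contacted Lsm4, a splicing protein, with 35 bulk and 98 double positive read pairs. The median of their 28 tested loops was 0.30 relative to the median loop, and 12 (42.9%) passed as higher and 1 as lower, against 38.1% and 22.4% of all tested loops. These calls rest on the read pairs that chose the members, and nothing is read from them. Basement membrane and collagen loops were 10, with a median of 0.44 relative to the median loop over 7 tested. The strongest, Ogfr to the collagen gene Col9a3, had 14 and 10 read pairs, at -1.55. Lamb2, a laminin chain, to Ccdc71 had 10 and 32, at 0.44. Sox12, an HMG box factor, contacted Zcchc3 with 42 and 31. Histone loops had a median of -0.60 relative to the median loop over 34 tested.

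Whether the promoters of a pair differ between groups outside the pair itself was examined in their contacts other than member loops. The limit on read pairs still decided which promoter to promoter contacts were left. Among those outside the members, 2936 had 5 or more double positive and 0 bulk read pairs, and 956 had 5 or more bulk and 0 double positive. The p-values of other contacts are thus not free of the rule, and its part in them was not tested. For each anchor the read pairs of all loops other than members were summed and fitted with edgeR over all anchors. Of 43438 anchors tested, 8.9% were higher in double positive libraries and 76.6% lower. Of the 3152 member anchors 3135 passed the filter, and 1054 were higher and 642 lower. That background holds mostly anchors that no double positive loop uses. Over loops between anchors that both groups use (shared anchors), 32.1% of 12374 anchors were higher and 15.3% lower, and of 3005 member anchors tested 979 (32.6%) were higher and 235 (7.82%) lower, with median log2 fold changes of 0.58 for members and 0.57 for all. The share of higher anchors was thus near the background and that of lower anchors below it. The rule itself may reduce the share of lower anchors, so nothing is read from that gap. In simulated counts of this sparsity TMM moved the median of unchanged anchors up, so the total of the tested anchors was also used as the scale. Calls test the log2 fold change before the median is taken off, so an anchor called higher can lie close to the median anchor. With the total as scale 762 were higher and 348 lower, against 25.8% and 18.1% of all, and 762 and 235 were called in the same direction on both scales.

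Anchors of a pair mostly did not oppose each other. On shared anchors both ends could be tested in 2796 pairs. Both were higher in 396 and both lower in 86, they went in opposite directions in 54, and the other pairs had at least 1 anchor without a call. On both scales the counts were 253, 86 and 39. Over these 2796 pairs the log2 fold changes of the left and right anchor had a Pearson correlation of 0.38, given as a description, since neighbouring anchors share libraries and partners and anchors enter several pairs.

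The Hox anchors stood at the low end. Of 18 anchors with a Hox gene, 16 were lower on either scale, with a median of -3.36 relative to the median shared anchor. For Hoxa4 the other contacts with shared anchors held 220 bulk and 106 double positive read pairs, a log2 fold change of -1.87 (standard error 0.28, edgeR adjusted p = 1.01e-09) and -2.44 relative to the median shared anchor. The anchor of Hoxa5 and Hoxa6 had 92 and 62, at -1.38 (standard error 0.32, edgeR adjusted p = 6.34e-05) and -1.95 relative to the median. Both were lower over all anchors as well. Of 35 anchors with another developmental transcription factor 8 (22.9%) were higher and 11 (31.4%) lower, and of 56 with a cytosolic ribosomal protein gene 20 (35.7%) were higher and 2 (3.57%) lower. Solute carrier genes had 27 (42.9%) higher and 6 (9.52%) lower of 63, and chaperone genes 13 (40.6%) higher of 32. Over all shared anchors these shares were 32.1% and 15.3%, and no list was tested against them. Histone anchors depended on the scale, with 12 higher and 3 lower of 35 by TMM but 3 and 5 by the total of the tested anchors.

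The anchor of Ptbp1 and that of Prtn3 and BC005764, which form a strong pair, were called in opposite directions in their other contacts. The Ptbp1 anchor had 124 bulk and 415 double positive read pairs with other shared anchors and was called higher (log2 fold change 0.95, standard error 0.27, edgeR adjusted p = 0.00101), and the Prtn3 anchor had 80 and 60 and was called lower (-1.22, standard error 0.32, adjusted p = 0.000620). Relative to the median shared anchor these were 0.38 and -1.79, so Ptbp1 lay near the median and Prtn3 below it. Both calls held over all anchors and with the total as scale. Among the strongest pairs Naca (adjusted p = 0.00563) and the anchor of Cd151 and Efcab4a (adjusted p = 0.00849) were also called higher in all of these fits, but lay 0.28 and 0.37 above the median shared anchor with standard errors of 0.28 and 0.33. Rbm39 was lower over all anchors (adjusted p = 4.54e-09) but on shared anchors only with the total as scale (adjusted p = 0.209 by TMM and 0.0486 by the total), and Phf20 was lower over all anchors alone (adjusted p = 0.000169, and 0.469 on shared anchors). Their stretch of chromosome 2 holds an excess of bulk read pairs, and its part in these values was not tested. The calls of the anchors of Atp5d/Midn, Cirbp, Gpsm3/Pbx2, Mbd3 and Uqcr11 also changed with the set of anchors or the scale.

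Further pairs with opposite anchors, picked after the values were seen, were Tbx6/Ypel3 to Aldoa and Mc1r/Tubb3 to Afg3l1. The anchor of Tbx6, a T-box factor of mesoderm, and that of Tubb3, a neuronal tubulin, were lower. Those of Aldoa, a glycolytic enzyme, and Afg3l1, a mitochondrial protease, were higher. The pairs themselves had 13 and 22, and 5 and 16, read pairs in the bulk and double positive pools.

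The pairs with the largest and smallest loop fold change were chosen on the same libraries, so the other contacts of their anchors are given without a test. Stra6 had 19 bulk and 277 double positive read pairs with other shared anchors, at 2.36 above the median shared anchor, and its partner Ccdc33 had 26 and 163, at 1.16. Tmem140, Cdc42ep1, Lgals2, Pth1r and Myl3 lay 0.71 to 2.05 above. At the other end Hoxb2 had 396 and 27, at -5.19, and Mycl1 24 and 13, at -2.21.

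**Figure D5:**
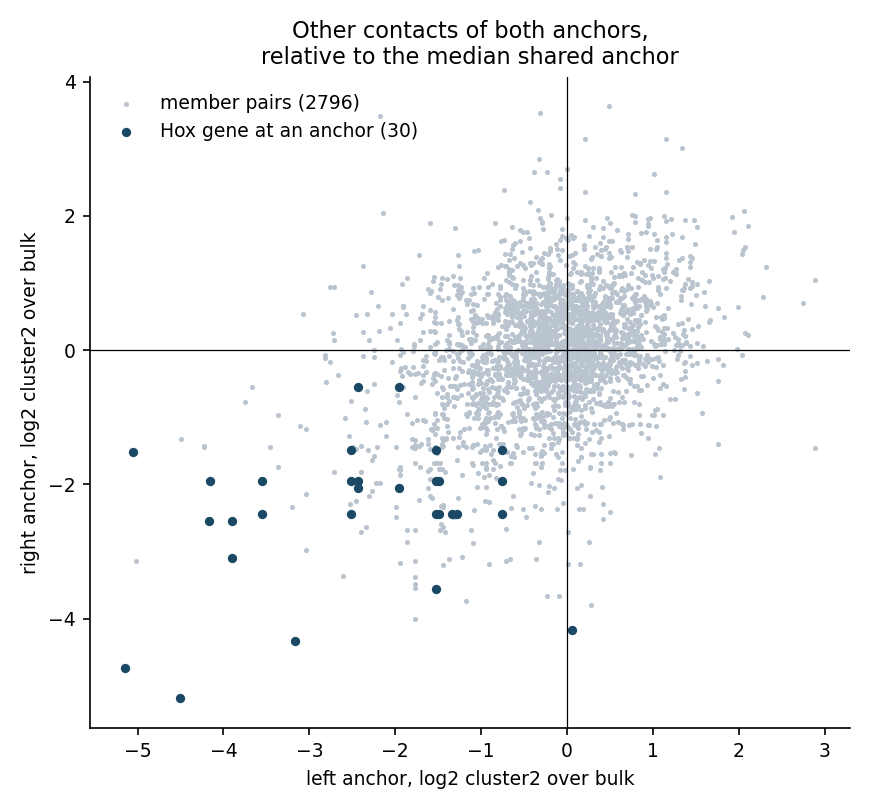
Other contacts of the left (x) and right anchor (y) of 2796 member pairs, as log2 of double positive over bulk relative to the median shared anchor (0 on both axes), with a point per pair and dark points for pairs with a Hox gene. Most pairs lie around the centre, and the Hox pairs lie to the lower left, apart from a pair whose left anchor is at Atp5g2.

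Members are part of a larger difference between the groups in what kind of loop was listed. Promoter to promoter loops held 9.73% ± 1.61 (SD, n = 12) of the autosomal read pairs under 1 Mb in bulk libraries, with 7.85% as the lowest, 9.11% as the median and 12.2% as the highest. In the double positive libraries they held 59.7%, 59.0%, 59.2%, 59.4% and 58.8%, a mean of 59.2% ± 0.348 (SD, n = 5). All 5 lay above every bulk library (difference 49.5 percentage points, two-sided exact permutation test, p = 0.000323, the smallest the design allows, also after adjustment over 3 classes of loop). On shared anchors the shares were 47.4% ± 1.30 and 59.2% ± 0.348, a difference of 11.9 points with the same p. With the members left out the difference was 44.9 points over all loops and 15.0 points on shared anchors, again with the same p. The loops of the groups use different sets of anchors, and a difference in anchor calling cannot be told apart from a difference between the cells. Distal to distal loops held 55.2% ± 4.05 of bulk and 5.95% ± 0.237 of double positive read pairs.

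In sequence, member promoters resembled other promoters that both groups use. Motifs were counted in the 250 bases before the annotated start of a gene, which need not lie inside the anchor. Of 3809 member genes, 17.6% held the GC box of SP factors (GGGGCGGGG) and 7.51% the palindromic NRF1 motif. A further 5.93% and 2.34%, which may overlap these, held the motifs of ETS factors (CCGGAAGT) and YY1 (AANATGGCG). At all genes of shared promoter anchors (11013) these shares were 18.8%, 7.06%, 4.93% and 1.86%, and at all 21413 autosomal protein-coding genes 13.6%, 4.77%, 3.38% and 1.23%. A TATA box (TATAAA) was in 6.83%, 6.93% and 12.4%. Direct repeats of the retinoic acid receptor site at a spacing of 5 bases were in 2 member genes (0.053%). They were in 5 genes of shared promoter anchors (0.045%) and 12 of all autosomal protein-coding genes (0.056%), so the share of members was near these. In the middle 1 kb of the anchor, the CTCF core motif was in 9.68% of member anchors and 9.48% of shared promoter anchors, and 30 members (1.03%) held it at both anchors. A match gives letters only and no match draws nothing about a factor. Motifs were searched on either strand, and a GC box may overlap another motif. Of the 8 printed runs, those of Hoxa4 and Midn held a GC box.

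The sorting markers themselves were not among the members. Loops at the start of Epcam held 7.91 ± 6.79 reads-per-million (RPM; SD, n = 12) in bulk and 60.6 ± 41.5 RPM (SD, n = 5) in double positive libraries, from 13 and 25 read pairs, and those of Cd38 held 22.1 ± 19.3 and 116 ± 59.2 RPM. RPM are scaled by library size alone, and on that scale the median tested loop was 2.99 higher in double positive libraries on the log2 scale. That is a value of single loops, whereas the marker values sum all loops at a start, so the measures are unlike. For sums per anchor without member loops, the median on that scale was -3.85 over 43438 anchors and 2.20 over 3135 member anchors. Most of the 43438 are anchors that no double positive loop uses. The log2 ratio of the means was 2.94 for Epcam and 2.39 for Cd38. Of the 6 endoderm markers, Col4a1 (4.08), Gata4 (3.58) and Foxa2 (3.30) lay above the median loop. Gata6 (1.86), Lama1 (1.37) and Sox17 (1.19) lay below it but above the median of all anchors. Of the 6 neural markers, Pax6, Lhx1, Neurod1 and Rfx4 had a lower mean in double positive libraries, with log2 ratios of -3.25 to -1.46, and Sox1 and Sox3 had no read pair in either group. None of these 14 genes was in a member pair, and the part of the cell makeup in the values above was not tested.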

How the data were processed

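Each of the 17 libraries was deposited by the authors as a list of loops with the count of read pairs joining the anchors of each loop. Per the study's methods the reads were aligned to mm9 with HiC-Pro and loops were called with hichipper. A loop without read pairs has no entry, replicates were not pooled, and which libraries gave the anchors is not given in the sources used here. PCR duplicates cannot be seen in these counts.

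Anchors that overlapped in any library were joined, counts were summed per loop, and anchors were set against start sites of protein-coding GENCODE M1 transcripts on the NCBIM37 (mm9) genome, read with Python 3.11.15 and pandas 2.3.3. The members and gene lists were chosen with earlier results of these data known. Loops, and anchors without their member loops, were fitted with edgeR 4.0.16 in R 4.3.3 (quasi-likelihood test, TMM, Benjamini-Hochberg over all features tested, adjusted p under 0.05), over features that had 20 or more read pairs in all and were seen in 5 or more libraries. In simulated data TMM moved the median of unchanged features up in these sparse counts and folds were recovered relative to the median, so fold changes are given relative to the median feature. Shares of read pairs were compared by a two-sided exact permutation test over libraries.

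Pairs were named by rule: the 8 whose smaller share of the read pairs of a pool was largest, 5 each with the largest and smallest log2 fold change, the 4 longest and the 4 strongest within a symbol family. Within each of these sets a loop was skipped when it shared an anchor with a pair already taken for that set. An anchor or a pair could thus recur in another set. Chromosome 18 was skipped throughout. Alternatives were DESeq2 1.42.0, library size alone, other filters, spans and start site windows, shared anchors, a replicate block and each library left out. Scaling by the total of the tested features, leaving out libraries on shared anchors and shares without the member loops were chosen after seeing the data. Some single results within the HoxA cluster are not reported here.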

Additional observations from a re-analysis of the deposited data

Results flagged for a closer look

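The named pairs and the shares of read pairs per class of loop gave 30 groups of 5 double positive libraries. In 2 of these, both named pairs, a single library stood further from the rest than Dixon's limit for 5 values (0.71 of the range). Chance alone gives about 1 such group in 20. The loop from Hist1h3e to the anchor with Hist1h3d and Hist1h4d had 59.31 CPM in double positive library 1, from 22 read pairs, against 11.84 to 16.86 CPM in the other libraries (gap over range 0.894). Without that library its log2 fold change relative to the median loop was -2.23, against -1.44 with it. The loop from Slc7a6 to Prmt7/Slc7a6os had 45.69 CPM in double positive library 5, from 14 read pairs, against 23.69 to 29.66 CPM (gap over range 0.729). Without it the value was -0.35, against -0.17.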

How the results depend on the processing

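The number of members followed the limit on read pairs, with 6568 at 3 or more and 702 at 10 or more in each pool, and was 2423 to 2939 under the other start site and anchor rules. Leaving out a library gave 2245 to 2819 members (bulk) and 2496 to 2779 (double positive). Member loops called higher (375) were 1571 with library size alone, 87 at 50 or more read pairs, 669 on shared anchors and 80 with no filter, and those called lower (62) were 1, 27, 41 and 0. With no filter edgeR called none lower although 5 members had an unadjusted p under 0.05, and DESeq2 with the filter called 35. Spans of at least 20 kb gave 19 lower. Leaving out a library gave 272 to 424 higher and 47 to 68 lower, the 272 without bulk library 4. For other contacts over all anchors, calls higher (1054) were 2637 with library size alone and 2283 with the total of the tested anchors, and calls lower (642) were 77 and 186, 235 on shared anchors and 409 by DESeq2. Leaving out a library gave 935 to 1288 higher and 519 to 650 lower, and on shared anchors 857 to 1217 and 204 to 249.

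The deviations of same-numbered libraries correlated at -0.036 to 0.065. Single loops had few read pairs per library, so counting error could hide a pairing, and whether replicate numbers pair the libraries cannot be told from this. With replicate numbers as a block 123 member loops were higher and 46 lower, and the same 10 libraries without the block gave 201 and 59. The difference in promoter to promoter share with the block was 48.0 points (exact sign-flip p = 0.0625, the smallest that 5 pairs allow), and 49.3 to 49.7 points with a library left out.

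With no filter the median of all loops, most of them with few read pairs, was -0.78. Turns were counted only for named pairs further from the median loop than their standard error. This left out Naca to Baz2a/Ptges3 and Slc7a6 to Prmt7/Slc7a6os. Of the pairs counted, 9 turned above the median: Hoxa4 to Hoxa5/Hoxa6 at 0.45, Midn to Cirbp at 1.53, Rbm39 to Phf20 at 2.44, Gpsm3 to Ager at 1.15, Mbd3 to Uqcr11 at 1.68, Cd151 to Polr2l at 1.76, Ptbp1 to Prtn3 at 1.07, Cbx3 to Hoxa4 at 1.26 and Hist1h3e to Hist1h3d at 1.44. None of the pairs counted turned under the other alternatives run. Depth limits single pairs: the median member has 7 bulk read pairs over 12 libraries.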
